A study of Mus musculus with 6 samples.

Results

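The genes described here make cholesterol and fatty acids, control that synthesis or move sterols out of the cell. They were listed by name: 33 symbols, of which 29 had a probe set carrying exactly 1 gene symbol in the array annotation, out of 22180 genes measured. For Acat2, Idi1, Scd2 and Soat1 no such probe set was used, and these 4 genes were not analysed here. The data come from 6 mice with gliomas, 1 array per mouse, from cells captured on magnetic beads with an antibody against CD105 (endoglin) and labelled tumor-associated endothelial cells. After capture, the cells of all 6 mice spent 12 h in glioma-conditioned medium before RNA was extracted. In 3 mice (1, 3 and 4) the genotype was Tie2-Cre,Pfn1fl/fl:Y129F, and in 3 mice (6, 7 and 10) it was Pfn1fl/fl:Y129F without Cre, so both groups carried the floxed profilin-1 gene and its Y129F form. Tie2-Cre expresses the recombinase from the promoter of the receptor gene Tek, which is active in endothelial cells and also in blood-forming cells. The labels do not say what Cre does to these alleles or how old the mice were. The question of the series is what phosphorylation of profilin-1, which binds actin monomers, does to gene expression here.

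Cholesterol is made from acetyl-CoA in a long chain of steps. The mevalonate pathway builds isoprenoid units, which are joined to squalene, closed to the ring of lanosterol, and trimmed to cholesterol by enzymes of the endoplasmic reticulum. When sterols run low, the protein SCAP escorts SREBP transcription factors from the endoplasmic reticulum to the Golgi, where they are cut and released to switch on most of these enzymes. When sterols are plentiful, INSIG proteins hold SCAP and SREBP back, and oxysterols activate the LXR receptors, which raise the sterol exporters ABCA1 and ABCG1 and, through SREBP-1c, fatty acid synthesis. Endothelial cells both make and take up cholesterol.

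Of the 29 measured genes, 3 were lower and 1 was higher in the captured cells of Tie2-Cre mice (limma across all genes, Benjamini-Hochberg adjusted p under 0.05), and 25 did not pass the threshold. The lower genes Sc5d, Msmo1 and Fdft1 encode enzymes between farnesyl diphosphate and cholesterol, and the higher gene was the sterol exporter Abca1. The share past the threshold was 13.8% of the 29, against 12.0% of all genes measured. By direction it was 10.3% lower against 7.17% of all genes, and 3.45% higher against 4.78%. As a group these genes were called about as often as any others on the array. The 3 arrays of each group did not overlap in 14 of the 29 genes (48.3%), against 31.0% of all genes. The all-gene shares here and below include many dimmer genes, and no share was taken among genes of similar level. With the dimmest 33.3% of genes left out, all 29 stayed. Then 2 of them were higher and 4 lower, beside 1360 and 1950 of 14786 genes. At an unadjusted p under 0.05 (limma), 3 of the 29 were higher and 7 lower, beside 2362 and 3162 of all 22180 genes. The median change was -0.03 log2 (Tie2-Cre minus no Cre), against -0.0042 over all genes, and the median absolute change was 0.13, against 0.11. None of the 29 (0) changed by 1.5-fold or more, and for 27 of them the whole 95% confidence interval of the change lay within 1.5-fold of no change; the exceptions were Msmo1 and Abca1.

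**Figure D1:**
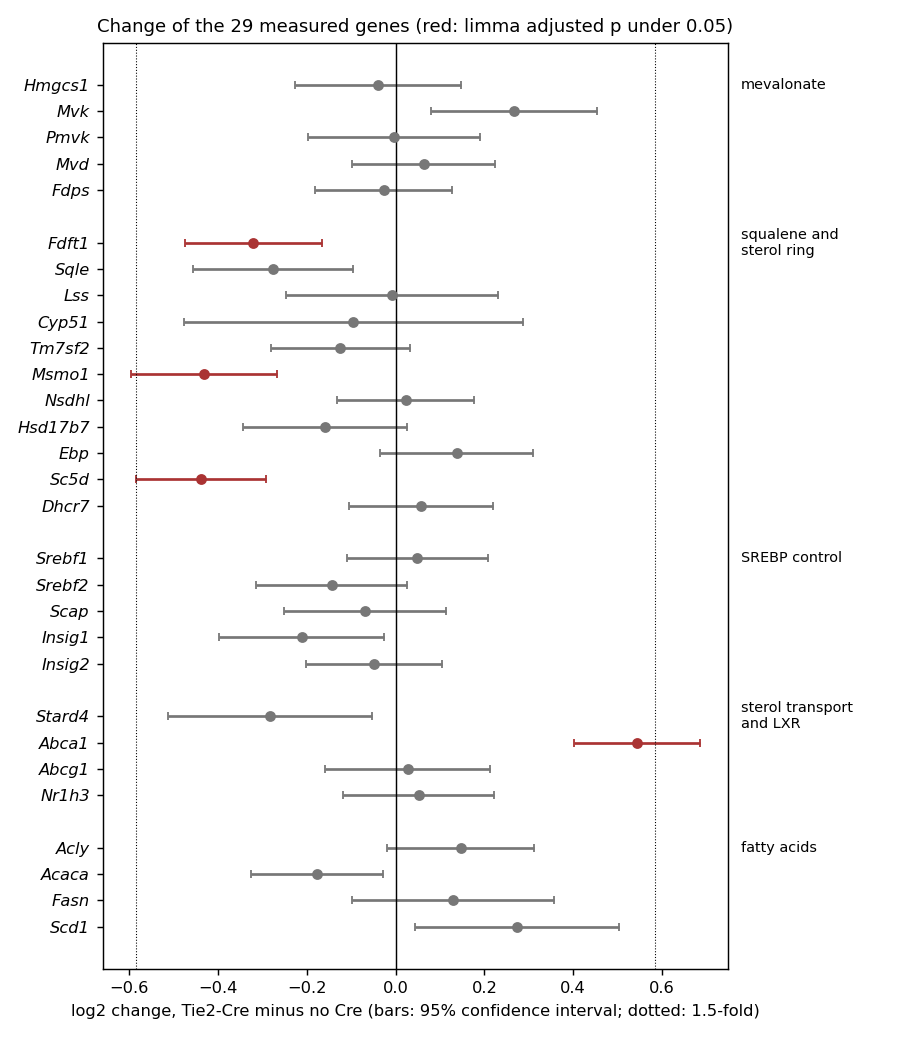
Change of each of the 29 genes on the log2 scale (Tie2-Cre minus no Cre, horizontal axis, with 95% confidence intervals from limma), in the order of the pathway from top to bottom. The red points are Fdft1, Msmo1 and Sc5d, to the left of 0, and Abca1, to the right; the dotted lines mark a change of 1.5-fold.

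Several facts of the whole series stand beside every value given here. Levels are log2 of the deposited array intensities, the SD is over the 3 mice of a group, and no detection call was used. Arrays of a group correlated at 0.994 to 0.996 across genes, and arrays of different groups at 0.986 to 0.988. The X-inactivation RNA Xist, expressed in female cells, was lower by 5.59 log2 with Tie2-Cre, and the Y-linked Uty was higher by 4.47, each without overlap, so genotype and sex cannot be told apart in this comparison. Eng, the gene of the sorting antigen, had a mean level of 11.91, while the other 11 endothelial markers lay at 4.27 to 7.19, and 10 of these 11 lay below the median of all genes (7.12). Of 12 endothelial markers 0 were higher and 1, Eng, was lower with Tie2-Cre (limma, with 1 higher and 2 lower at an unadjusted p under 0.05). Their summed intensity was 4317 to 4418 with Tie2-Cre and 5107 to 5274 without Cre. Tek, whose promoter drives the Cre, had a mean level of 5.79. The median level of the 12 was 6.23, beside 9.27 for 11 pericyte and smooth muscle markers and 10.48 for 9 fibroblast markers. Whether the cells were mainly endothelial, and in what share of them Cre acted, was not tested. The summed intensity of the 11 pericyte and smooth muscle markers was 30708 to 36690 with Tie2-Cre and 21739 to 23119 without Cre, and 6 of them were higher and 0 lower. For 9 fibroblast markers the sums were 20901 to 23543 and 19429 to 19691 (4 higher, 1 lower), and for 12 macrophage markers 1321 to 1428 and 1519 to 1591 (0 higher, 2 lower, Cd68 and Csf1r). For 6 adipocyte markers the sums were 1728 to 2028 and 1422 to 1588, with Pparg, the fat cell transcription factor, higher and 0 lower, and for 10 mesothelial and epithelial markers they were 1468 to 1657 and 3480 to 3866 (0 higher, 3 lower). For 9 astrocyte and glioma markers the sums were 2232 to 3087 and 1899 to 2098, with Nes (nestin) higher by 0.59 and 0 lower (limma; 1 lower at an unadjusted p under 0.05), and for 5 oligodendrocyte markers, 0 of which passed (limma; 0 also at an unadjusted p under 0.05), they overlapped at 618 to 681 and 652 to 707. No marker was at 0, since array intensities carry a background. Over all genes 4.78% were higher and 7.17% lower. Each sum is weighted toward its brightest markers, so it need not describe a whole cell type. Of the mesothelial and epithelial markers, Upk1b (-3.29), Upk3b (-1.36) and Krt19 (-0.42) were lower and 7 did not pass. Among fibroblast markers Dpt was higher (3.54) and Dcn lower (-0.76). The brightest astrocyte and adipocyte markers, Ptprz1 and Fabp4, did not pass (limma adjusted p 0.216 and 0.315). The part of sex and of these other cell types in the results was not tested, and in sorted cells a change in the mix of cells and a change in RNA per cell cannot be told apart.

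The promoters of Sc5d, Msmo1 and Abca1 are shown as those of genes past the threshold. SREBP acts at many promoters of this pathway together with the factor NF-Y, which binds CCAAT boxes, and with Sp1, which binds GC boxes. For Abca1, an LXR target, no LXR element was searched. For Fdft1, the other gene past the threshold, none is shown, as it had no entry among the RefSeq promoters used. Each sequence is the stretch of 250 bases before the start site, from RefSeq (GRCm38.p6), and the capitals mark the sterol regulatory element core TCACNCCAC, the NF-Y box CCAAT and the GC box GGGCGG on either strand (read on the opposite strand, these appear as their reverse complements). Hmgcs1, which did not pass the threshold, was added after the search. It was the 1 gene of the 23 searched whose window holds the sterol regulatory element core.
Sc5d, chr9:42264301-42264550, minus strand: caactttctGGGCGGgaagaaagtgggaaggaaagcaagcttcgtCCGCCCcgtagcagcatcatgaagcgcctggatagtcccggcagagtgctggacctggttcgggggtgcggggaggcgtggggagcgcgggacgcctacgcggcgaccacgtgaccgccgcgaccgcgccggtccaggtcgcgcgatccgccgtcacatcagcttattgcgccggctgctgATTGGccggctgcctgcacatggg
Msmo1, chr8:64733579-64733828, minus strand: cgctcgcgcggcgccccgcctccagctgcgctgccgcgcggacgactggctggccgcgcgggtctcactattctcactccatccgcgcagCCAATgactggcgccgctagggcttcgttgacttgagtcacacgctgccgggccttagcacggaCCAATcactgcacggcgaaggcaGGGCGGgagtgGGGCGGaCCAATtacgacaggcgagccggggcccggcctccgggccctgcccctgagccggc
Abca1, chr4:53159896-53160145, minus strand: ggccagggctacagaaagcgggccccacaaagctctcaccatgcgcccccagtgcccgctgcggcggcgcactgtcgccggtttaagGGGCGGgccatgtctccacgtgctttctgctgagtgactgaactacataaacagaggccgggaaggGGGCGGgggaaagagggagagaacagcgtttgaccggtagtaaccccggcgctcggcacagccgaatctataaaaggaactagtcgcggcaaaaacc
Hmgcs1, chr13:119690101-119690350, plus strand: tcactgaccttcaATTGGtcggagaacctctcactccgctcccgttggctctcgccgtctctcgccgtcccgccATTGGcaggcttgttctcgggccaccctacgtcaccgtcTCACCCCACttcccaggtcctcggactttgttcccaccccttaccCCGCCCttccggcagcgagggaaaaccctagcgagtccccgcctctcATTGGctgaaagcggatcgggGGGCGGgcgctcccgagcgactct

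Promoters of 23 of the 29 genes were in the RefSeq table, and the first listed start site of each was searched. The sterol regulatory element core was found in 1 of the 23 (4.35%), Hmgcs1, beginning 137 bases before its start. It was found in 1.04% of 27025 promoters, 1 for each gene symbol of that table. The NF-Y box was found in 17 of the 23 (73.9%), against 34.5% of the 27025, and the GC box in 16 (69.6%), against 32.9%. The 27025 were not limited to the 22180 genes measured and not matched to the 23 in level, and no share was taken among similar genes. The Msmo1 window holds 3 NF-Y boxes and 2 GC boxes within 160 bases of the start, Sc5d holds 1 NF-Y box and 2 GC boxes, and Abca1 holds 2 GC boxes and no match to the other motifs. Mvk, with 5, had the most NF-Y boxes of the 23. A match describes the letters and not a bound site, and no overlap between matches occurred in the 4 sequences shown. Other forms of these elements, and sites further than 250 bases from the start, were not searched, so a gene without a match may still have one.

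Within the mevalonate pathway, which leads to farnesyl diphosphate, none of the 5 measured genes passed the threshold (limma, 0 of 5, beside 12.0% of all genes). A count of 0 in so short a list cannot be told apart from that share. At an unadjusted p under 0.05 (limma), 1 was higher and 0 lower, beside 2362 and 3162 of all 22180 genes. The median change of the 5 was -0.0037. The genes were Hmgcs1 (which condenses acetyl-CoA units to HMG-CoA), the kinases Mvk and Pmvk, the decarboxylase Mvd and the farnesyl diphosphate synthase Fdps. Hmgcs1 lay at 8.38, 8.46 and 8.45 in Tie2-Cre mice 1, 3 and 4 and at 8.46, 8.36 and 8.60 in no Cre mice 6, 7 and 10. The groups overlapped, and the change of -0.04 had a 95% confidence interval of -0.23 to 0.15. Fdps changed by -0.03 (interval -0.18 to 0.13) and Pmvk by -0.0037 (interval -0.20 to 0.19), and for Mvd the value was 0.06 (interval -0.10 to 0.22).

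Mvk, mevalonate kinase, stood apart from the other 4. It lay at 8.42, 8.45 and 8.51 with Tie2-Cre and at 8.06, 8.20 and 8.31 without Cre. All 3 Tie2-Cre arrays lay above the no Cre arrays, whose spread (SD 0.12, n = 3) was wider than that of the Tie2-Cre arrays (SD 0.042, n = 3). The change of 0.27 (SE 0.081) did not pass (limma adjusted p 0.0762). It passed when the dimmest 33.3% of genes were dropped (adjusted p 0.0376) and under a trended, robust eBayes (0.0423), in a range of 0.0376 to 0.215 over its alternatives.

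The next 11 enzymes carry farnesyl diphosphate through squalene and lanosterol to cholesterol, and all 11 were measured. Of these, 3 were lower, 0 were higher and 8 did not pass the threshold (limma). At an unadjusted p under 0.05 (limma), 4 were lower and 0 higher, beside 3162 and 2362 of all 22180 genes. The share lower was 27.3%, against 7.17% of all genes. The median change was -0.12, and the groups did not overlap in 7 of the 11 (63.6%, against 31.0% of all genes). Both all-gene shares include many dimmer genes. Fdft1, squalene synthase, takes the first step toward sterols. Its level was 9.44, 9.55 and 9.45 in Tie2-Cre mice 1, 3 and 4, and 9.84, 9.78 and 9.78 in no Cre mice 6, 7 and 10. All Tie2-Cre arrays were below all no Cre arrays, and the means were 9.48 ± 0.058 (SD, n = 3) and 9.80 ± 0.036 (SD, n = 3). The change of -0.32 (SE 0.067, limma adjusted p 0.0186) corresponds to a level 1.25-fold higher without Cre. This call was kept without Tie2-Cre mouse 3 (adjusted p 0.0309), and was lost when any other mouse was dropped (0.0587 for Tie2-Cre mouse 1, 0.0511 for mouse 4, 0.0739, 0.0553 and 0.0577 for no Cre mice 6, 7 and 10), and also when the probe sets without a single symbol joined the fit (0.0524).

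Sqle, squalene epoxidase, adds the oxygen from which the ring closes. Its level was 9.62, 9.81 and 9.72 with Tie2-Cre, and 10.02, 10.05 and 9.91 without Cre. The groups did not overlap, with a gap of about the SD within each. The change was -0.28 (SE 0.078) and did not pass (limma adjusted p 0.0592). It passed with a minimum mean log2 of 5 (adjusted p 0.0446), with the dimmest genes dropped (0.0277), after repeated quantile normalization (0.0457) and under a trended, robust eBayes (0.0148), in a range of 0.0148 to 0.173 over its alternatives. Lss, which closes the ring to lanosterol, lay at 7.60 to 7.80 with Tie2-Cre and 7.57 to 7.91 without Cre. Its change was -0.01, with an interval of -0.25 to 0.23.

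Cyp51, the P450 enzyme that removes the first methyl group of lanosterol, differed more among the Tie2-Cre mice than any other gene of the set. It lay at 6.93, 7.11 and 7.61 in mice 1, 3 and 4 (SD 0.35, n = 3) and at 7.17, 7.39 and 7.38 without Cre (SD 0.13, n = 3). Mouse 4 lay above and mice 1 and 3 below all no Cre arrays, and the change of -0.10 had an interval of -0.48 to 0.29. Without mouse 4 it was -0.29 (limma adjusted p 0.143), and without mouse 1 it was 0.05. Tm7sf2, a sterol reductase, lay at 7.11, 7.23 and 7.17 with Tie2-Cre and at 7.30, 7.34 and 7.24 without Cre. Its groups parted by a narrow gap, and the change of -0.12 did not pass (limma adjusted p 0.315).

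Msmo1, methylsterol monooxygenase, starts the removal of the remaining ring methyl groups, which Nsdhl and Hsd17b7 complete. Its level was 7.59, 7.71 and 7.71 in Tie2-Cre mice 1, 3 and 4, against 8.06, 8.08 and 8.17 in no Cre mice 6, 7 and 10. The groups lay well apart, at means of 7.67 ± 0.069 (SD, n = 3) and 8.10 ± 0.059 (SD, n = 3). The change was -0.43 (SE 0.071, limma adjusted p 0.00662), a level 1.35-fold higher without Cre. The partner enzymes did not pass. Hsd17b7 lay at 8.53, 8.78 and 8.64 with Tie2-Cre and 8.81, 8.78 and 8.83 without Cre, with a change of -0.16 (adjusted p 0.27 by limma). Its groups just failed to overlap, Tie2-Cre mouse 3 and no Cre mouse 7 being nearly level. Nsdhl lay at 8.80 to 8.93 with Tie2-Cre and 8.84 to 8.88 without, and its change was 0.02 (interval -0.13 to 0.18).

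Ebp, the isomerase that shifts a double bond in the ring, lay at 8.69, 8.72 and 8.78 with Tie2-Cre and 8.62, 8.67 and 8.48 without Cre. The 3 Tie2-Cre arrays were above the others by a small margin, and the change of 0.14 did not pass (limma adjusted p 0.317). Nsdhl and Ebp are the genes of the set on the X chromosome. Sc5d, sterol desaturase, acts just before the last step. Its level was 10.21, 10.29 and 10.25 in Tie2-Cre mice 1, 3 and 4, against 10.68, 10.70 and 10.68 in no Cre mice 6, 7 and 10. The no Cre arrays were nearly equal (SD 0.012, n = 3) and the Tie2-Cre arrays close to each other (SD 0.041, n = 3). The change was -0.44 (SE 0.063, limma adjusted p 0.00364), or 1.35-fold higher without Cre. Dhcr7, the reductase that yields cholesterol from the product of SC5D, lay at 6.92 to 7.02 and 6.83 to 6.96, and its change was 0.06 (interval -0.11 to 0.22).

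**Figure D2:**
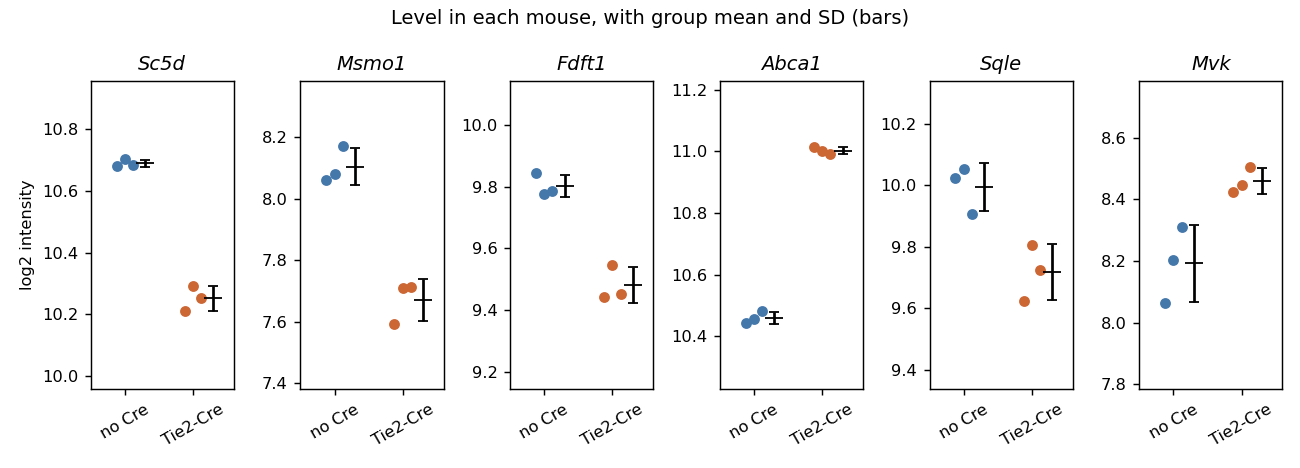
Level of 6 genes in each mouse, as log2 intensity (vertical axis, spanning 1 log2 unit in every panel), with no Cre in blue, Tie2-Cre in orange, and the mean with SD as black bars. The groups of 3 do not overlap in any of the 6; Sc5d, Msmo1, Fdft1 and Abca1 passed the threshold, and Sqle and Mvk did not.

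None of the 5 genes for the SREBP factors and the proteins that hold or escort them passed the threshold (limma, 0 of 5, beside 12.0% of all genes). At an unadjusted p under 0.05 (limma), 1 was lower and 0 higher, beside 3162 and 2362 of all 22180 genes. Srebf2, the SREBP mainly tied to sterol genes, lay at 9.10, 9.19 and 9.23 with Tie2-Cre and 9.28, 9.41 and 9.27 without Cre. The groups did not overlap, though Tie2-Cre mouse 4 and no Cre mouse 10 were close, and the change was -0.14 (limma adjusted p 0.283). Srebf1, the SREBP mainly tied to fatty acid genes, lay at 8.35 to 8.41 and 8.25 to 8.39, a change of 0.05 (interval -0.11 to 0.21). Insig1, itself an SREBP target, lay at 7.58, 7.71 and 7.84 with Tie2-Cre and 7.94, 7.90 and 7.93 without Cre. The no Cre arrays were tight (SD 0.016, n = 3) and the Tie2-Cre arrays spread below them (SD 0.13, n = 3), and the change of -0.21 did not pass (adjusted p 0.145). Its paralog Insig2 changed by -0.05 (interval -0.20 to 0.10). Scap changed by -0.07 (interval -0.25 to 0.11), and its second probe set, which was set aside as the dimmer one, by -0.03.

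Among the genes of sterol transport and LXR, 1 of 4 was higher (25.0%, against 4.78% of all genes), 0 were lower (limma; 1 higher and 1 lower at an unadjusted p under 0.05) and 3 did not pass. Abca1, which loads cholesterol onto apolipoprotein A-I, lay at 11.01, 11.00 and 10.99 in Tie2-Cre mice 1, 3 and 4 and at 10.44, 10.46 and 10.48 in no Cre mice 6, 7 and 10. The arrays of each group were almost level, with SDs of 0.011 and 0.019 (n = 3 each), and the gap between them was far wider. The change was 0.54 (SE 0.061, limma adjusted p 0.00121), or 1.46-fold. It was the largest change of the 29 genes. The exporter Abcg1, which like Abca1 is an LXR target, changed by 0.03 (interval -0.16 to 0.21), and Nr1h3, the gene of LXR alpha, by 0.05 (interval -0.12 to 0.22). Stard4, a soluble sterol carrier driven by SREBP, lay at 6.29, 6.51 and 6.27 against 6.48, 6.71 and 6.72. Its groups overlapped through Tie2-Cre mouse 3 and no Cre mouse 6, and the change of -0.28 did not pass (adjusted p 0.118 by limma).

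Of the 4 measured genes of fatty acid synthesis, none passed the threshold (limma, 0 of 4, beside 12.0% of all genes). At an unadjusted p under 0.05 (limma), 1 was higher and 1 lower, beside 2362 and 3162 of all 22180 genes. The median change was 0.14. Acly, which makes cytosolic acetyl-CoA from citrate, lay at 9.95, 10.05 and 10.00 with Tie2-Cre and 9.94, 9.78 and 9.84 without Cre, a change of 0.15 (limma adjusted p 0.261). Its groups were parted by a sliver between Tie2-Cre mouse 1 and no Cre mouse 6. Acaca, the acetyl-CoA carboxylase that commits carbon to fatty acids, lay at 8.99, 9.08 and 9.02 against 9.22, 9.19 and 9.21. Here the Tie2-Cre arrays were the low ones, and the change of -0.18 did not pass (adjusted p 0.127 by limma). Fasn, fatty acid synthase, overlapped between the groups, at 10.77, 10.70 and 10.45 against 10.42, 10.51 and 10.59. Its change was 0.13 (interval -0.10 to 0.36), with Tie2-Cre mouse 4 among the no Cre values. Scd1, the desaturase that makes oleate, lay at 9.98, 10.02 and 10.28 with Tie2-Cre and 9.74, 9.79 and 9.93 without Cre. Mouse 4 was the high one here, and the change of 0.27 did not pass (limma adjusted p 0.129). Within this short pathway the values of Acaca thus lay on the other side of 0 from those of Acly, Fasn and Scd1, none of them past the threshold.

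**Figure D3:**
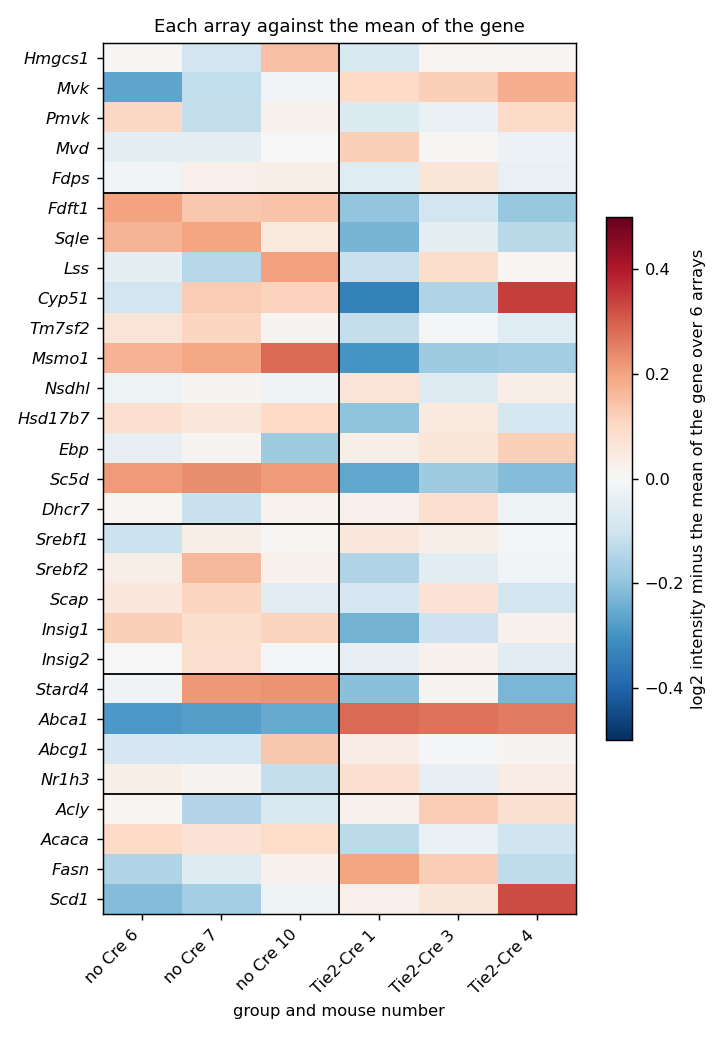
Each array's log2 intensity minus the mean of the gene over all 6 arrays (colour), for the 29 genes in pathway order (rows, lines between the groups of genes) and the 6 mice (columns). Abca1 and Sc5d show flat blocks of opposite sign in the 2 groups, and among the 16 sterol enzymes Tie2-Cre mouse 1 holds the lowest value of its group in 13.

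The mice of a group did not vary evenly. Of the 16 measured enzymes from Hmgcs1 to Dhcr7, 13 had their lowest Tie2-Cre value in mouse 1, against 1 in mouse 3 and 2 in mouse 4, and the median deviation of mouse 1 from its group's mean was -0.05. Over all genes mouse 1 had the lowest Tie2-Cre value in 7884 of 22180, and its median deviation was -0.0029. Among the no Cre mice the lowest value of the 16 enzymes fell to mouse 6 in 7, mouse 7 in 6 and mouse 10 in 3. Without Tie2-Cre mouse 1 the changes were -0.42 for Sc5d, -0.39 for Msmo1, -0.30 for Fdft1 and -0.23 for Sqle. The spread within groups was otherwise small: the median SD over the 29 genes was 0.065 with Tie2-Cre and 0.078 without Cre. Over all genes, which include many dimmer ones, it was 0.10 and 0.089.

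The calls of Sc5d, Msmo1 and Abca1 were kept in all 14 alternatives that give an adjusted p, whereas Fdft1 kept its call in 8. Over these, the adjusted p (limma) ran up to 0.0201 for Sc5d, 0.0318 for Msmo1, 0.00799 for Abca1 and 0.0739 for Fdft1. The exact permutation test, two-sided, gave p = 0.1 for each of the 4, which is the smallest that 3 mice against 3 allow. None of the 4 met the other rule tried, which asks for 1.5-fold or more and an unadjusted p under 0.05. For 23 of the 29 genes no setting gave a call; the other 6 were these 4, Sqle and Mvk.

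**Figure D4:**
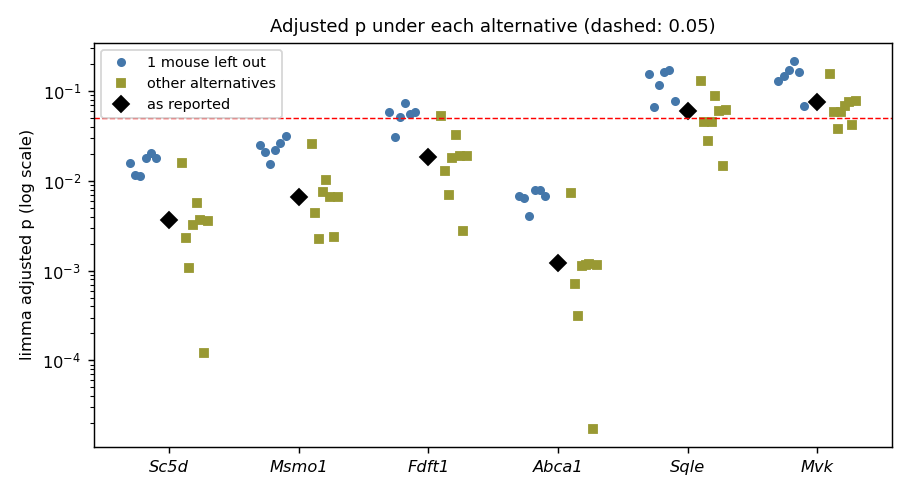
Adjusted p of limma (vertical axis, log scale) for the 4 genes past the threshold and for Sqle and Mvk, as reported (diamonds), with 1 mouse left out (circles) and under the other alternatives (squares). Sc5d, Msmo1 and Abca1 stay under the dashed line at 0.05 throughout, while Fdft1, Sqle and Mvk have points on both sides of it.

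Around these genes, 4 lists of related lipid genes held 90 symbols, of which 83 were measured. Of the 83, 5 were higher and 7 lower with Tie2-Cre (14.5%, beside the 12.0% of all genes), 71 did not pass, and the median change was -0.0091. At an unadjusted p under 0.05 (limma), 14 were higher and 19 lower, beside 2362 and 3162 of all 22180 genes. Among 29 genes of fatty acid elongation, desaturation and precursor supply, 3 were higher (10.3%, against 4.78% of all genes), 2 lower (6.90%, against 7.17%) and 24 did not pass, with a median of 0.03. Fads2, the desaturase that starts the synthesis of long polyunsaturated fatty acids, was lower (-0.50, SE 0.080, adjusted p 0.00611), while its relative Fads3 was higher (0.29, SE 0.068). Fads2 lay at 10.01, 10.13 and 10.26 with Tie2-Cre and 10.63, 10.65 and 10.61 without Cre, well apart. Mlx, the partner of the carbohydrate-sensing ChREBP, was higher (0.40, SE 0.068, adjusted p 0.00763). Of the 4 elongation dehydratases, Hacd2 was higher (0.35, SE 0.084) and Hacd3 lower (-0.31, SE 0.078). The other 2 (given after seeing their values) did not pass, Hacd4 at -0.39 (adjusted p 0.0723 by limma) and Hacd1 at -0.06 (0.764).

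Of 13 measured genes of SREBP processing and sterol-regulated degradation, 1 was lower (7.69%, against 7.17% of all genes), 0 higher and 12 did not pass (limma; 3 lower and 0 higher at an unadjusted p under 0.05), with a median of -0.09. The lower one was Erlin1 (-0.29, SE 0.069, adjusted p 0.0312), whose product sits in the endoplasmic reticulum membrane and takes part in the degradation of sterol-regulated proteins. Among 26 genes of sterol uptake, movement and oxysterols, 2 were higher (7.69%, against 4.78% of all genes), 4 lower (15.4%, against 7.17%) and 20 did not pass, with a median of 0.03. Gramd1a, which moves cholesterol from the plasma membrane to the endoplasmic reticulum, was higher (0.62, SE 0.10, adjusted p 0.00698), or 1.54-fold. It lay at 10.37, 10.42 and 10.05 with Tie2-Cre and at 9.69, 9.66 and 9.62 without Cre, so mouse 4 was the nearest to the no Cre arrays. The oxysterol hydroxylase Cyp7b1 was also higher (0.84, SE 0.22, adjusted p 0.0454). Lower were the mitochondrial sterol hydroxylase Cyp27a1 (-0.65, SE 0.096, adjusted p 0.00408), the cholesteryl ester hydrolase Nceh1 (-0.51, SE 0.081), the sterol carrier Stard5 (-0.35, SE 0.078) and the LXR target Lpcat3 (chosen after seeing its values), which puts polyunsaturated chains into phospholipids (-0.31, SE 0.075).

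Of 15 genes on the isoprenoid branches of the mevalonate pathway, which serve dolichol, ubiquinone and protein prenylation, none passed (limma, 0 of 15). Over all genes 12.0% passed. At an unadjusted p under 0.05 (limma), 3 of the 15 were lower and 0 higher, beside 3162 and 2362 of all 22180 genes. The median of the 15 was -0.07. The smallest p-values belonged to the prenyltransferase subunit Rabggta (-0.17, adjusted p 0.138 by limma), the tRNA-modifying Trit1 (-0.20, 0.17) and the carboxyl methyltransferase Icmt (-0.16, 0.184). With the mean of its probe sets in place of the brightest one, the change of Nceh1 was -0.29 rather than -0.51, still past the threshold (limma adjusted p 0.0283). Some calls among the related genes did not hold when 1 mouse was left out. Those of Fads2, Mlx, Gramd1a, Cyp27a1 and Nceh1 were kept whichever mouse was left out, and those of Hacd3 and Erlin1 were lost whichever was left out (adjusted p 0.061 to 0.122 and 0.0574 to 0.101). Of the 6 ways to leave out a mouse, the calls of Fads3, Hacd2 and Lpcat3 were kept in the 1 without Tie2-Cre mouse 3, that of Stard5 in the 1 without no Cre mouse 6 and that of Cyp7b1 in the 1 without Tie2-Cre mouse 4. The call of Lpcat3 was also lost with each array centred on its median (limma adjusted p 0.0502). With the probe sets without a single symbol in the fit, 2 higher and 3 lower were left. Among those lost were Fads3 (limma adjusted p 0.0716), Hacd2 (0.0870), Hacd3 (0.0991) and Erlin1 (0.0776). The counts of 5 higher and 7 lower became 3 and 3 when Tie2-Cre mouse 1 was dropped, 2 and 4 when no Cre mouse 6 was, and 2 and 3 when no Cre mouse 7 or 10 was.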

How the data were processed

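RNA of 6 mice (3 Tie2-Cre, 3 no Cre) was measured on Affymetrix Mouse Gene 2.0 ST arrays, 1 array per mouse. The deposited values are RMA intensities on a linear scale, which the authors made with Affymetrix Expression Console, per the labels' descriptions and per the submitters' processing notes. Its version was not given in the sources used here. RMA includes background correction and quantile normalization, so log2 was taken and no further scaling applied. No genome build was named, and only the promoters carry coordinates. There were 41345 probe sets: 23521 with 1 gene symbol in the array annotation, 1814 with several and 16010 not listed. Each gene was read from its brightest probe set (mean of the 6 arrays), leaving 22180 genes.

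Groups were compared with limma 3.58.1 in R 4.3.3 (lmFit, eBayes, two-sided, Benjamini-Hochberg over all genes, threshold 0.05), with data.table (version 1.17.8) for reading; other steps used Python 3.11.15. The number of arrays limits the precision. Mouse numbers are not shared between the groups. The pipeline was tested on simulated data. Every listed gene was to be named. Per-mouse values are given for those past the threshold, those whose groups did not overlap and those that an alternative moved across it. Outside this rule, they are also given for Hmgcs1, Cyp51, Stard4 and Fasn. Of each related list, the genes past the threshold, up to 3 in each direction, or else the 3 with the smallest p, were named. The genes, the lists and the rule were chosen with earlier results of these data known. Alternatives concerned the probe sets tested, filters on dim genes, scaling, the choice of probe set, eBayes, array weights, the call rule and each mouse.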

Additional observations from a re-analysis of the deposited data

How the results depend on the processing

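No paired analysis was possible because the groups share no mouse number. The counts among the 29 genes stayed at 1 higher and 2 to 4 lower under every alternative with an adjusted p, except that 2 were higher with the dimmest 33.3% left out and with eBayes with trend and robust (Mvk was added in both). With an unadjusted p under 0.05 and at least 1.5-fold, 0 were higher and 0 lower. Their median change lay between -0.05 and 0.0043 when 1 mouse was left out. Of the 29 changes, 6 crossed 0 under some alternative (Abcg1, Cyp51, Hmgcs1, Lss, Nsdhl and Pmvk), none of them past the threshold in any. Among the related genes, 5 higher and 7 lower became 2 and 3 with the 17824 probe sets without a single symbol added, 7 and 11 with eBayes with trend and robust, and 2 and 1 by the unadjusted rule; with 1 mouse left out they ran from 2 to 4 and from 3 to 6, and their median from -0.043 to -0.0053. Over all genes, 1061 higher and 1591 lower became 634 to 903 and 910 to 1253 with 1 mouse left out, and 424 and 551 by the unadjusted rule. Some of these settings also bring fewer arrays or a larger number of probe sets. The cause of the shifts was not tested. Background can understate the fold of dim genes, which was not tested here.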
